A study of Mus musculus with 12 samples.

Results

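A set of 40 genes of glycolysis and of the cellular response to low oxygen was followed through sorted myeloid cells of mouse brain and blood. The genes were chosen by name, and 37 of the 40 were measured among 19938 genes. A gene counted as measured where a probe set of the array is annotated with its symbol alone, and the brightest such probe set stood for it. Gpi1 and Eno1 are not named in the probe annotation used here, and Gapdh stands only on probe sets with several symbols. Expression was measured on 12 Affymetrix arrays of the type Mouse Gene 1.0 ST, with 1 array for each of 12 flow-sorted populations of C57BL/6 mice, of which 8 were from mice with tumors and 4 from normal mice. The tumors were intracranial GL261 gliomas, a mouse glioma line that carried luciferase, and the sample labels give mice of 7 weeks at implantation and 2 weeks of growth, in the same words for the normal arrays. The brain gave normal and tumor microglia (MG, sorted as CD11b+/CD45low), normal and tumor macrophages (MP, CD11b+/CD45high), and Gr1+ and Gr1- cells of tumor brain. The blood gave Gr1+ and Gr1- cells of tumor-bearing mice, and populations labelled macrophage high and macrophage low from tumor-bearing and from normal mice, without a statement of which marker was high or low. How many mice stood behind an array is not given in the sources used here.

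Glycolysis splits glucose into pyruvate, and most of its steps can be run by several isozymes that differ between tissues. Pyruvate is either turned into lactate and exported or passed on to mitochondria. When oxygen is low, prolyl hydroxylases stop marking the HIF alpha subunits for degradation, and HIF raises the transcription of glucose transporters, glycolytic enzymes and its own hydroxylases. Activated macrophages and neutrophils are known for high glycolysis, and neutrophils depend on it.

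All levels are log2 values as deposited, and all differences are differences of 2 log2 values, so that a difference of 1 is 2-fold. Each condition has 1 array and no replicate, and a comparison of 2 arrays therefore has no replicate check and no p-value. As a yardstick of noise, 1027 olfactory receptor genes, which myeloid cells are not known to use, had differences with an SD of 0.34 to 0.65 between the 2 arrays of a comparison. The 95th percentile of these genes set the background level of each array, from 8.93 to 10.09. Of all genes, 11.2% to 39.1% lay above it, and the lowest share was on the normal blood macrophage high array, where only 6 of the 37 genes were above background. Levels were compared between arrays for 1 gene and not between genes, because each probe set has its own response. In bulk samples of this kind, fewer cells of a type and less RNA per cell cannot be told apart.

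Several arrays held markers that their labels do not name. The array labelled tumor blood Gr1- had 11 of 11 microglia markers above background, as did tumor MP, and over all genes it correlated with tumor MP at r = 0.962. The arrays labelled tumor blood macrophage low and normal blood macrophage high each had 8 of 8 natural killer cell markers and 0 of 12 neutrophil markers above background. The arrays labelled tumor blood macrophage high and normal blood macrophage low had 0 of 8 and 8 of 12. Normal MP had 11 of 12 neutrophil markers and 6 of 6 markers of border macrophages, which line the vessels and coverings of the brain, and tumor MP had 1 of 12 and 1 of 6. Of the defining microglia markers, 5 of 11 were above background in tumor brain Gr1+ cells and 11 of 11 in tumor brain Gr1- cells, and the latter also had 4 of 8 natural killer cell markers. These values stand beside the results that they touch below.

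A few promoters are shown first, because the results turn on pairs of genes for the same or the next step that differed in direction. A script looked for ACGTG and GCGTG on both strands, the core letters that HIF is known to bind, in the 150 bases before the start of each gene, taken from RefSeq on the mouse build GRCm38.p6. Matches are in capitals, each sequence is written on the strand of its gene, and CACGTG holds a match on each strand at the same place. Pgk1, Pfkp and Ldha were higher in tumor MG, while Pfkm and Aldoc were lower, and Ldhb was lower in Gr1+ cells. Pfkm has several listed starts, and Ldha and Aldoc have 2 each, of which the first is shown.
Pgk1, chrX:106186950-106187099, plus strand: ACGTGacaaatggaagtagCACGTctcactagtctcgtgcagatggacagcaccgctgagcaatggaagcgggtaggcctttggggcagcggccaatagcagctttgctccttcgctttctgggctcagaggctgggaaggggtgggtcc
Pfkp, chr13:6648772-6648921, minus strand: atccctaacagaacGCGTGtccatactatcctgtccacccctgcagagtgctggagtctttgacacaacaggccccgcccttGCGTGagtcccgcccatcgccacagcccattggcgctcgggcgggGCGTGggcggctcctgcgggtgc
Ldha, chr7:46845654-46845803, plus strand: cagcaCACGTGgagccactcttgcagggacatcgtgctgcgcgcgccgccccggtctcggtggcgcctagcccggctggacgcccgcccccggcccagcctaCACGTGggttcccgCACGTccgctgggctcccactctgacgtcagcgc
Pfkm, chr15:98092439-98092588, plus strand: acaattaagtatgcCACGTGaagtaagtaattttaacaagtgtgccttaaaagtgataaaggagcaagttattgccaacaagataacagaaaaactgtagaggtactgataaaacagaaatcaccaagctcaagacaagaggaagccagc
Aldoc, chr11:78322923-78323072, plus strand: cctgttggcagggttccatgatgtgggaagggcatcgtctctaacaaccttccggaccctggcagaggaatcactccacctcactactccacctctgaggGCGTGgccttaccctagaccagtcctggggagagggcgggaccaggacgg
Ldhb, chr6:142507958-142508107, minus strand: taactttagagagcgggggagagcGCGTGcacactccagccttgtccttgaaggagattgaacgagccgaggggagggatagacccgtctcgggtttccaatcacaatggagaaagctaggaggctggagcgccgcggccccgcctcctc
All of these windows held a match, those of the lower genes too. Of the 33 measured genes in the promoter table, 25 had a match before the first listed start (75.8%), against 28.7% of 27025 genes of the table. HIF targets were part of what the 40 genes were chosen for, so this share describes the list. Among the 7 genes that were at least 2-fold higher in the MG comparison below, 4 had a match, and of those higher in tumor brain Gr1+ than Gr1- cells, 9 of 12 in the table. The genes without a match in this window were Mif, Egln3, Tpi1, Hk3, Hk1, Eno2, Pkm and Aldoa, the partner of Aldoc that is not shown. Of these, Hk1, Pkm and Aldoa had a match before another listed start. The other way round, Pfkm had no match before listed starts 3 and 4 of its 4, and Pdk1 none before listed start 2 of 2. A match is a description of these windows and not a site.

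Over the 12 arrays, 6 of the 37 genes were above background on every array, 23 on some, and 8 on none. The 6 were Hk1, Pgk1, Pkm, Ldha, Bnip3l and Mif. Hk1, the widespread hexokinase that starts glycolysis, varied least, between 12.04 and 12.88. Several probe sets stood on the array for 9 of the 37 genes, and values are given for the brightest alone. The 9 were Hk1, Pgk1, Pgam1, Pkm, Ldhb, Bnip3, Bnip3l, Mif and Higd1a. Eno2, Slc16a1, Bnip3, Ankrd37, P4ha2, Adm, Ddit4 and Higd1a were below background on all 12 arrays, with highest values from 8.18 for Slc16a1 to 9.35 for P4ha2, and their differences carry little information. The genes that varied most were Aldoc with an SD of 1.58 over the 12 arrays, Ldhb with 1.53, Hk2 with 1.49, Slc2a3 with 1.32 and Slc16a3 with 1.31. Tumor brain Gr1+ cells had the highest value of all 12 arrays for 12 of the 37 genes, against 5.03% of all genes. These 12 were Slc2a1, Pfkl, Pfkp, Aldoa, Tpi1, Pgk1, Pkm and Ldha, and with them Hif1a, Egln1, Mif and Ero1a.

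**Figure D1:**
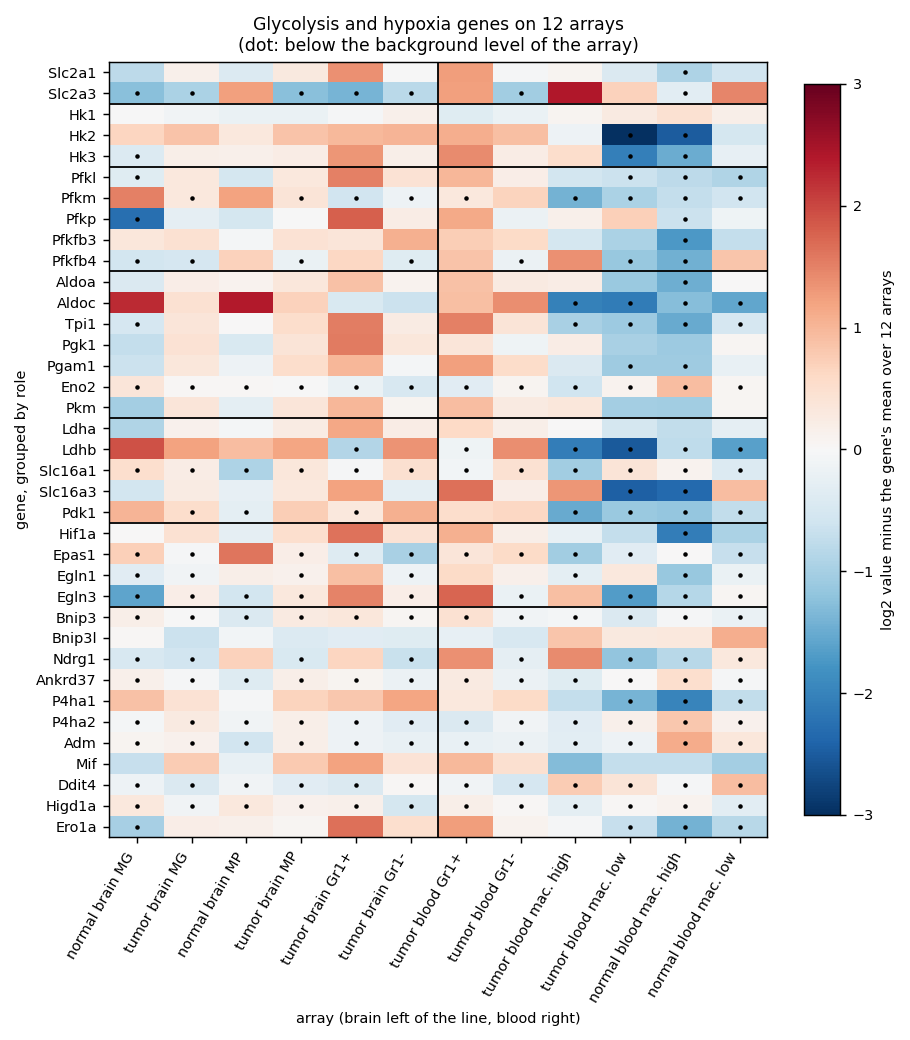
Heat map of the 37 measured genes (vertical axis, grouped by role) on the 12 arrays (horizontal axis, brain left of the line). The colour is the log2 value minus the gene's mean over the 12 arrays, and a dot marks a value below the background level of that array. The column of tumor brain Gr1+ cells holds the highest value of 12 of the 37 genes, and the 8 genes with a dot in every column were below background throughout.

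Tumor MG were compared with normal MG to see which of these genes differ in microglia of a tumor-bearing brain. Of the 37 genes, 7 were at least 2-fold higher, against 2.44% of all genes, and 2 were at least 2-fold lower, against 3.61%. The higher ones were spread over the pathway, from phosphofructokinase to lactate formation. Pfkp, the platelet-type phosphofructokinase, was at 10.18 in tumor MG and at 8.19, below background, in normal MG, a difference of 1.98 that came to 0.74 with the latter raised to background. Pgk1, which makes the first ATP of glycolysis, was at 12.66 against 11.53, a difference of 1.13. Pkm, the pyruvate kinase of the last step, was at 12.33 against 10.95, a difference of 1.39. Ldha, which turns pyruvate into lactate, was at 11.29 against 10.27, a difference of 1.03. Mif, a cytokine and HIF target, was at 11.62 against 10.16, a difference of 1.46. Ero1a, the oxidase of protein folding that was listed under its older symbol Ero1l, was at 9.66 against 8.46, the latter below background, a difference of 1.20, or 0.23 with it raised to background. Egln3, a prolyl hydroxylase that HIF induces, was at 8.81 against 7.02, but both values lay below background. The glucose transporter Slc2a1, at 10.73 against 9.80, and Pgam1, at 10.56 against 9.59, stayed just under 2-fold. Aldoc was lower by a difference of -1.80 and Pfkm by -1.19. The tumor MG value of Pfkm was below background, and its difference came to -0.54 with that value raised to it. The median difference of the 37 genes was 0.22, against -0.09 over all genes. Leaving the 14 genes that were dim on both arrays out, the medians were 0.64 for the genes described here and -0.10 for all genes. With values below background raised to it, 4 were higher and 1 lower. Beside this, monocyte markers were above background for 6 of 8 genes in tumor MG and for 0 of 8 in normal MG, with medians of 10.05 and 6.75, and the part of such cells in these differences was not tested.

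Tumor MP against normal MP gave fewer and partly other genes. Of the 37, 3 were at least 2-fold higher, against 1.65% of all genes, and 4 lower, against 3.58%. Mif was at 11.64 in tumor MP and 10.63 in normal MP, a difference of 1.01, and Pdk1, the kinase that keeps pyruvate out of mitochondria, was at 9.34 against 8.30, the latter below background, a difference of 1.04 that came to 0.27 with it raised to background. Slc16a1, a lactate transporter, had a difference of 1.27 with both arrays below background. Slc2a3, the high-affinity glucose transporter of neurons and leukocytes, was at 7.81 in tumor MP, below background, and at 10.29 in normal MP, a difference of -2.48. Aldoc was lower by a difference of -1.69, Epas1, the second HIF alpha gene, was at 8.45 against 9.83, and Ndrg1, a stress and hypoxia target, at 8.28 against 9.42. Epas1 and Ndrg1 had their tumor value below background as well. Normal MP, as given above, held 11 of 12 neutrophil and 6 of 6 border macrophage markers, whose medians were 11.73 and 11.30, against 8.07 and 7.74 in tumor MP, and their part in the lower Slc2a3, Ndrg1 and Epas1 was not tested. With values below background raised to it, 1 gene was higher and 2 were lower, and with arrays centred on their medians 1 was higher. The median difference of the 37 genes was 0.50, against 0.12 over all genes.

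The MG and MP comparisons use different arrays. They had Mif in common among the higher genes, 14.3% of those in MG and 33.3% of those in MP, and Aldoc among the lower genes, 50% of those in MG and 25% of those in MP. Genes that passed 2-fold in MG alone were mostly higher in MP as well but by less, with Pgk1 at 0.86, Pkm at 0.66, Pfkp at 0.50 and Ldha at 0.29. Ero1a had a difference of -0.10 there. The 2 tumor arrays correlated at r = 0.975 over all genes and were nearly level for these 5 genes, so the gaps lay mostly between the normal arrays. Normal MP lay above normal MG by 0.24 for Pgk1, 0.73 for Pkm, 1.73 for Pfkp, 0.86 for Ldha and 1.15 for Ero1a. None of these differences between MG and MP could be tested.

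**Figure D2:**
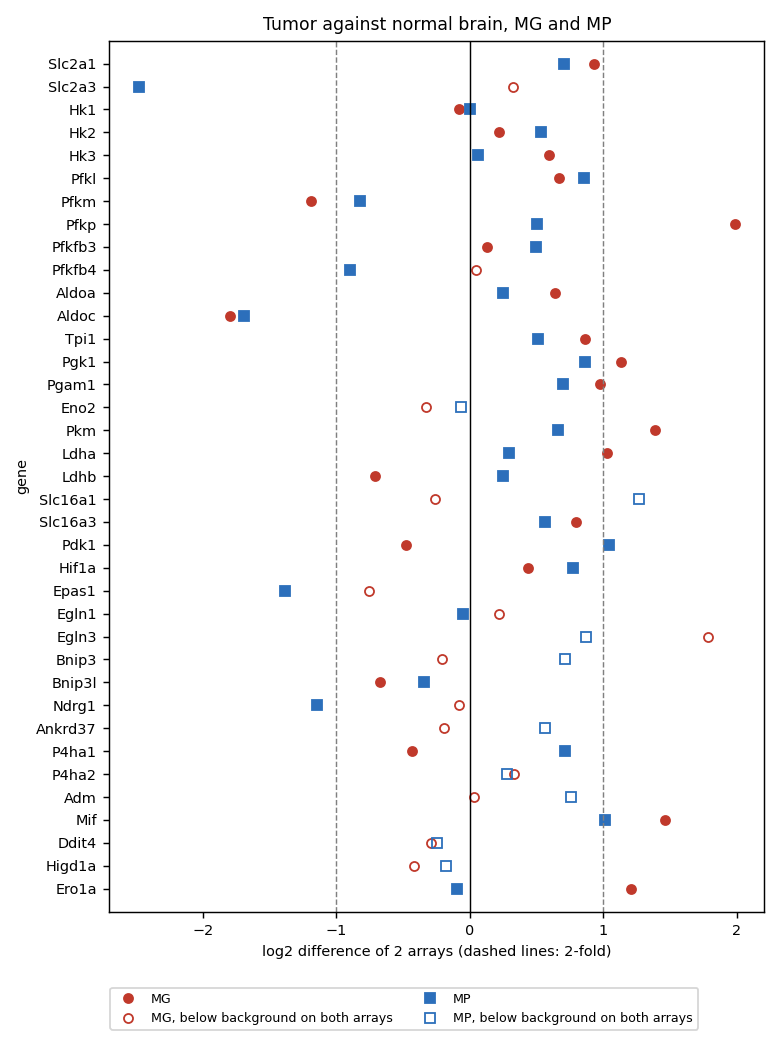
Log2 difference of tumor against normal brain (horizontal axis) for each of the 37 measured genes (vertical axis), in MG as circles and in MP as squares, with open symbols where both arrays were below background and dashed lines at 2-fold. Mif and Pkm lie to the right of the upper line among the filled MG symbols, as does Pfkp, whose normal MG value was below background, and Slc2a3 in MP and Aldoc in both lie to the left of the lower line.

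In normal brain, MP and MG differed in some of the same genes. Against normal MG, normal MP had 6 of the 37 genes at least 2-fold higher, against 4.35% of all genes, and 2 lower, against 3.11%. Slc2a3 was higher by 2.50, Pfkp by 1.73, Pfkfb4 by 1.25, Ndrg1 by 1.18 and Ero1a by 1.15, and Egln3 by 1.03 with both arrays below background. Pfkfb4, like Pfkfb3, makes the activator of phosphofructokinase. Pdk1 differed by -1.31, and Slc16a1 by -1.43 with both values dim. In each of these genes 1 of the 2 arrays was at or under the background level, and none remained 2-fold apart once such values were raised to it. In the tumor the 2 arrays were nearly level for these genes. Tumor MP against tumor MG had 0 higher and 0 lower, against 0.186% and 0.155% of all genes. The 37 differences ran from -0.30 for Slc2a3 to 0.30 for Pfkfb4, within the SD of 0.35 of the olfactory receptor genes. The cell type markers of these 2 arrays were close as well. Microglia markers had medians of 11.35 in tumor MP and 11.17 in tumor MG, and monocyte markers 10.20 and 10.05. How far the 2 arrays hold different cells was not tested.

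At the phosphofructokinase step, isozymes lay apart in opposite directions between normal and tumor brain, and at the aldolase and lactate dehydrogenase steps the groups of 1 isozyme lay apart and those of the other met or overlapped. Aldoc, the aldolase of brain and in particular of astrocytes, was at 11.95 in normal MG and 12.09 in normal MP, and at 10.15, 10.39, 9.24 and 9.07 in tumor MG, MP, Gr1+ and Gr1- cells. All 4 tumor arrays were below both normal arrays. Aldoa, the aldolase of most other cells, was at 10.99 and 11.52 in normal and at 11.62, 11.77, 12.29 and 11.52 in tumor brain, and its groups met at the normal MP and tumor Gr1- values. Pfkm, the muscle-type phosphofructokinase, was at 9.91 and 9.60 in normal brain, and at 8.72, 8.77, 7.83 and 8.24 in the same order of tumor cells, where each value was below background. Pfkp was at 8.19 and 9.92 in normal brain, and at 10.18, 10.42, 12.23 and 10.67 in tumor brain. Pfkl, the liver-type form, was at 9.39 and 9.23, and at 10.06, 10.08, 11.28 and 10.19. Both Pfkp and Pfkl were thus higher on all 4 tumor arrays and Pfkm lower. Ldhb, the lactate dehydrogenase that favours the way back to pyruvate, was at 10.98 and 10.01 in normal brain and at 10.27, 10.26, 8.20 and 10.42 in tumor brain, where Gr1+ cells stood alone below background and the groups overlapped. Ldha was at 10.27 and 11.12 and at 11.29, 11.41, 12.33 and 11.39, and its groups did not overlap.

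Of the blood arrays, the 2 of Gr1+ and Gr1- cells also had Aldoc above background, at 10.61 and 11.11, while the macrophage arrays had it at 7.60 to 8.43. The order of Aldoc over the brain and Gr1 arrays was close to that of 2 markers of other brain cells, the brightest of their lists, which were chosen after their values were seen. Mbp, a myelin gene of oligodendrocytes, was at 12.60 and 12.70 in normal MG and MP, at 11.49 and 11.16 in blood Gr1- and Gr1+ cells, at 10.93 and 11.10 in tumor MG and MP, and at 9.41 and 9.65 in tumor brain Gr1+ and Gr1- cells. Slc1a2, a glutamate transporter of astrocytes, was at 12.31 and 12.37 in normal MG and MP and at 9.70 to 11.34 in tumor brain. In blood it was at 11.90 and 11.35 in Gr1- and Gr1+ cells and at 7.16 to 7.43 on the macrophage arrays. The whole astrocyte list had 2 of 5 genes above background in normal MG and MP and 1 of 5 in each tumor brain array, with medians of 8.97 to 9.0 against 7.77 to 8.60. The oligodendrocyte list had 2 of 4 above background in normal MG and MP and 1 or 2 of 4 in tumor brain, with medians of 10.36 to 10.53 against 8.46 to 9.50. The part of RNA from such cells in the lower Aldoc was not tested.

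**Figure D3:**
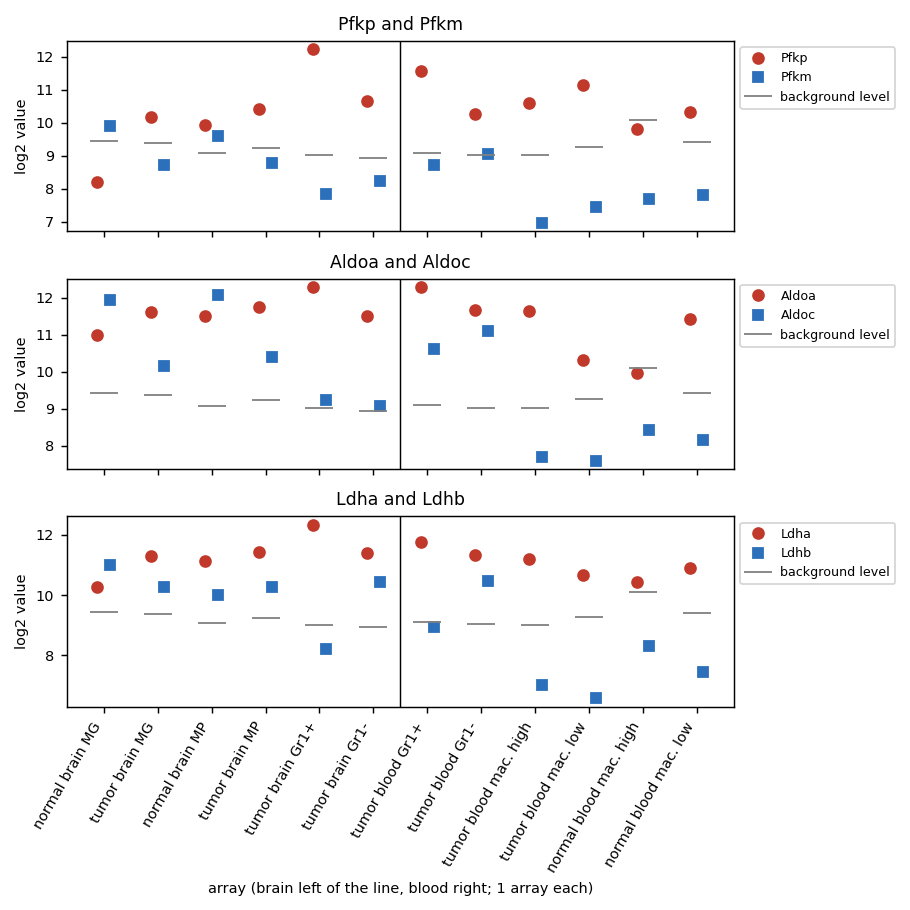
Log2 values of 3 isozyme pairs (vertical axis) on the 12 arrays (horizontal axis, brain left of the line, 1 array each), with circles for Pfkp, Aldoa and Ldha, squares for Pfkm, Aldoc and Ldhb, and a grey bar for the background level of the array. Aldoc falls from 12.09 in normal MP to 9.07 in tumor brain Gr1- cells, and Ldhb is below background at 8.20 in tumor brain Gr1+ cells.

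Taking the 6 brain arrays together, the 4 tumor arrays were compared with the 2 normal ones. The arrays are different sorted populations and not replicates, so the spread within a group is that between populations. The Gr1+ and Gr1- arrays have no normal counterpart in the brain. Monocyte markers above background were 5 to 8 of 8 on the tumor arrays, 0 of 8 in normal MG and 7 of 8 in normal MP. The part of such cells in the results below was not tested. All 4 tumor arrays were above both normal arrays for 14 of the 37 genes, against 5.58% of all genes, namely Slc2a1, Hk2, Hk3, Pfkl, Pfkp, Pfkfb3, Tpi1, Pgk1, Pgam1, Pkm, Ldha, Hif1a, Egln3 and Mif. All 4 were below both for Pfkm, Aldoc, Epas1 and Bnip3l, and for the dim Eno2 and Higd1a, 6 in all, against 11.8% of all genes. Of the 14 higher genes, Egln3 was above background only in tumor Gr1+ cells, and Hk3, Pfkl, Pfkp and Tpi1 were below it in normal MG. An exact permutation test of 4 against 2 arrays cannot give a two-sided p below 0.133. In limma with Benjamini-Hochberg adjustment over all genes, 1 of the 37 was called lower at the adjusted threshold of 0.05, against 0.346% of all genes, and 0 higher, against 0.13%. The lower gene was Aldoc, with 9.71 ± 0.66 (SD, n = 4) against 12.02 ± 0.10 (SD, n = 2), a difference of -2.31 with a standard error of 0.37 and a limma adjusted p of 0.0331. This call was lost with median centring (adjusted p 0.103) and with quantile normalization (adjusted p 0.0804), and in 4 of the 6 fits that left out an array. At an unadjusted p under 0.05, limma had 12 of the 37 genes higher, against 2.77% of all genes, and 3 lower, against 7.15%. Closest to the threshold were Mif, with 11.65 ± 0.32 (SD, n = 4) against 10.39 ± 0.33 (SD, n = 2) and a limma adjusted p of 0.0852, and Pfkm, with a difference of -1.36 and a limma adjusted p of 0.0892. A fit of the MG and MP arrays alone, with the population as a block, was added after the data were seen and rests on 1 residual degree of freedom a gene. It called 0 of the 37 genes higher, against 0.0251% of all genes, and 0 lower, against 0%. At an unadjusted p under 0.05 it had 12 higher, against 2.45%, and 3 lower, against 6.54%. Aldoc had a difference of -1.75 there, with a limma adjusted p of 0.093, and Mif one of 1.24 with a limma adjusted p of 0.202.

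The oxygen sensing genes and their targets differed among themselves in the brain. Hif1a, the main HIF alpha gene, was at 10.85 in normal MG and 10.56 in normal MP, and at 11.29, 11.34, 12.46 and 11.26 in tumor MG, MP, Gr1+ and Gr1- cells, and the groups did not overlap. Epas1 was above background on 1 array alone, normal MP at 9.83. Egln3 was at 7.02 and 8.06 in normal brain and at 8.81, 8.93, 10.11 and 8.81 in tumor brain, and of these only tumor Gr1+ cells were above background. Egln1, the prolyl hydroxylase that sets HIF turnover at normal oxygen, was at 8.72 and 9.23 in normal brain and at 8.94, 9.18, 9.97 and 8.91 in tumor brain, where the groups overlapped. Of these values only those of normal MP and tumor Gr1+ cells were above background. Bnip3l, a mitophagy receptor, was at 11.42 and 11.30 in normal brain and lower, at 10.75 to 11.04, in tumor brain. P4ha1, a collagen prolyl hydroxylase, was at 10.94 and 10.02, and at 10.50, 10.74, 10.86 and 11.23, with overlap. The known HIF targets Adm, Ddit4, Ankrd37, Bnip3 and P4ha2 were below background on all arrays.

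Gr1+ and Gr1- cells of tumor brain had 14 of the 37 genes 2-fold apart, against 9 in tumor and normal MG, but 10 against 12 with quantile normalization. Gr1 marks monocytes and granulocytes. Of the 37 genes, 13 were at least 2-fold higher in Gr1+ cells, against 2.88% of all genes, and 1 was lower, against 5.12%. The median difference was 0.68, against 0.04 over all genes. Among transporters, Slc2a1 was at 11.96 in Gr1+ and 10.58 in Gr1- cells, a difference of 1.38, and Slc16a3, the exporter of lactate in glycolytic cells, at 12.05 against 10.55, a difference of 1.5. Among the upper enzymes, Hk3, the hexokinase of myeloid cells, was at 11.02 against 9.86, Pfkl at 11.28 against 10.19, and Pfkp at 12.23 against 10.67, a difference of 1.56. Tpi1 was at 11.37 against 10.08, Pgk1 at 13.80 against 12.59, and Pgam1 at 11.23 against 10.17. Ldha, at 0.94, and Pkm, at 0.91, were just under 2-fold, as was Pfkfb4 at 0.99. Of the sensors, Hif1a was higher by 1.19, Egln1 by 1.06 and Egln3 by 1.30. Ndrg1, at 9.37 against 8.04, was higher by 1.33 and Ero1a by 1.14. Ldhb, at 8.20 against 10.42, was lower by a difference of -2.22. The Gr1- values of Egln1, Egln3, Ndrg1 and Pfkfb4 and the Gr1+ value of Ldhb were below background. With these raised to it, Egln1 came to 1.03, Egln3 to 1.175, Ndrg1 to 0.44, Pfkfb4 to 0.48 and Ldhb to -1.41. Pfkfb3 and Pdk1 had differences of -0.70 and -0.73. The Gr1+ value of Pdk1 was below background, and its difference came to -0.65 with that value raised to it. Monocyte markers had a median of 11.97 in Gr1+ and 9.41 in Gr1- cells, with 8 of 8 and 5 of 8 above background, and microglia markers one of 8.26 and 11.41, so the 2 arrays hold cells of different kinds and the part of cell type was not tested. Neutrophil markers were above background for 1 of 12 genes in Gr1+ and 0 of 12 in Gr1- cells.

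The same comparison in blood used other arrays. In blood, 10 of the 37 genes were at least 2-fold higher in Gr1+ cells, against 3.2% of all genes, and 1 was lower, against 4.31%. With brain it shared 8 higher genes, Slc2a1, Hk3, Pfkp, Tpi1, Slc16a3, Egln3, Ndrg1 and Ero1a, which are 61.5% of those in brain and 80% of those in blood, and the lower Ldhb. The overlap over all genes is not given here. Over all genes, brain and blood correlated at r = 0.935 for the Gr1+ and 0.949 for the Gr1- arrays. Gr1+ and Gr1- arrays of the same tissue correlated at 0.891 in brain and 0.886 in blood. A correlation of levels does not give the overlap of 2-fold calls, and whether this overlap is particular to these genes was not tested. Ndrg1 was higher by 1.66, Egln3 by 1.93 and Slc16a3 by 1.46 in blood, and Ldhb differed by -1.52. Slc2a3 went apart, with 10.28 in blood Gr1+ and 8.01 in blood Gr1- cells, a difference of 2.27, but 7.66 and 8.25 in brain, both below background. Pfkfb4 passed 2-fold in blood with 1.01. The blood Gr1- values of Slc2a3, Pfkfb4, Egln3 and Ndrg1 and the blood Gr1+ value of Ldhb were below background. With these raised to it, the blood differences came to 1.25, 0.60, 1.32, 1.08 and -1.37 in that order. The array labelled tumor blood Gr1- carries 11 of 11 microglia markers and 0 of 12 neutrophil markers, and blood Gr1+ cells carry 4 of 11 and 8 of 12. The direction in blood thus rests on an array that stands apart from its label. The blood Gr1+ array also had 1 of 5 astrocyte and 2 of 4 oligodendrocyte markers above background, where the blood macrophage arrays had 0 of each. The part of brain RNA in the blood Gr1 values was not tested. A limma fit of the 4 Gr1 arrays with the tissue as a block, added after the data were seen, called 12 of the 37 genes higher in Gr1+ cells, against 2.87% of all genes, and 1 lower, against 5.08%, at an adjusted p under 0.05. At an unadjusted p under 0.05 these were 18, against 8.06%, and 2, against 13.2%. The 12 were Slc2a1, Hk3, Pfkl, Pfkp, Pfkfb4, Tpi1, Pgam1, Slc16a3, Hif1a, Egln3, Ndrg1 and Ero1a, and Ldhb was the lower one. Slc16a3 had a mean difference of 1.48 with a standard error of 0.17 and a limma adjusted p of 0.0074, and Ldhb one of -1.87 with a standard error of 0.22 and a limma adjusted p of 0.0078. Pgk1, at 0.85 with a limma adjusted p of 0.0804, and Ldha, at 0.68 with 0.112, did not pass. With 1 residual degree of freedom a gene, the p-values rest largely on the variance that limma shares over all genes. Hk1, Hk3, Pfkfb4 and Ero1a all had a standard error of 0.1745. The p-values thus measure only in part how far brain and blood differ in this contrast, and not the spread between animals.

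**Figure D4:**
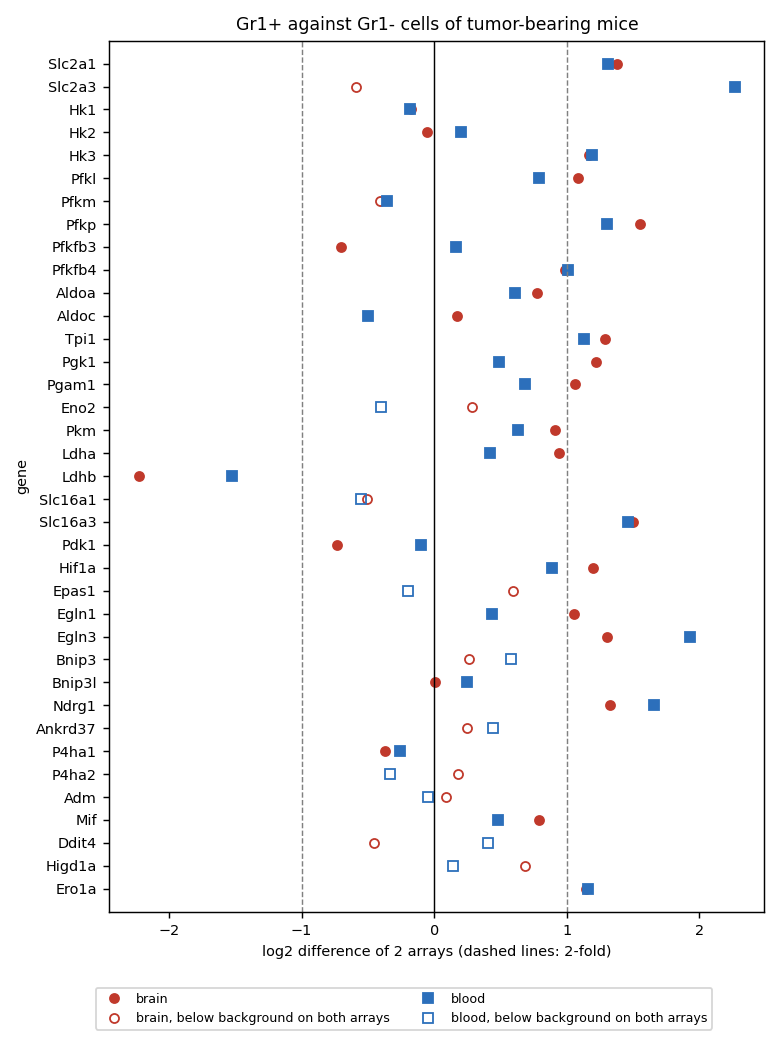
Log2 difference of Gr1+ against Gr1- cells of tumor-bearing mice (horizontal axis) for the 37 measured genes (vertical axis), in brain as circles and in blood as squares, with open symbols where both arrays were below background and dashed lines at 2-fold. To the right of 2-fold lie 13 genes in brain and 10 in blood, and Ldhb lies to the left in both, at -2.22 and -1.52.

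Gr1+ cells of tumor brain and of blood were close to each other for most of these genes. They were also close over all genes, with r = 0.935, so this is not particular to the 37. Of the 37, 1 was at least 2-fold higher in brain, against 1.02% of all genes, and 2 were lower, against 2.97%. Pgk1 was at 13.80 in brain and 12.59 in blood, a difference of 1.21. Slc2a3 was at 7.66 against 10.28, a difference of -2.62, and Aldoc at 9.24 against 10.61, a difference of -1.37. Neutrophil markers had a median of 7.84 in brain and 11.63 in blood Gr1+ cells, and their part in the Slc2a3 difference was not tested. Mbp was at 9.41 in brain and 11.16 in blood Gr1+ cells and Slc1a2 at 9.70 and 11.35, and the part of such RNA in the Aldoc difference was not tested.

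The blood macrophage arrays gave opposite pictures in tumor-bearing and normal mice. Their cell type markers cross with the labels high and low, and whether labels were exchanged was not tested, so each direction below holds for the arrays as labelled. In tumor-bearing mice, macrophage high against low had 10 of the 37 genes at least 2-fold higher, against 6.72% of all genes, and 1 lower, the dim Slc16a1, against 5.17%. In normal mice the same comparison had 0 higher, against 4.37% of all genes, and 12 lower, against 11.9%. Slc16a3 was at 12.19 and 8.41 in the tumor high and low arrays and at 8.52 and 11.77 in the normal ones. Hk2, the hexokinase that HIF induces, was at 9.91 and 6.59 in the tumor high and low arrays and at 7.57 and 9.53 in the normal ones. Pfkfb4 was at 10.17 and 7.65, and at 7.34 and 9.62. Slc2a3 was at 11.46 and 9.74, and at 8.73 and 10.52. In each of these genes the tumor high and the normal low arrays were above background, and they had the higher value of their pair. The same 2 arrays have 8 of 12 neutrophil markers above background, with medians of 12.22 and 10.93, and the other two have 8 of 8 natural killer cell markers, with medians of 12.56 and 11.20. Monocyte markers went with the neutrophil ones, with 8 of 8 and 7 of 8 above background (medians 11.21 and 10.77) against 4 of 8 and 1 of 8 (medians 9.29 and 8.58). B cell markers had medians of 10.37 and 10.98 against 12.17 and 11.89. The part of these cells in the gene values was not tested. Aldoa, Pgk1, Pkm, Hk3, Egln3 and Ndrg1 were the other genes higher in the tumor high array, by 1.20 to 2.59. The tumor low values of Slc16a3, Hk2, Pfkfb4, Hk3, Egln3 and Ndrg1 were below background. With these raised to it, the tumor differences came to 2.93, 0.66, 0.91, 0.96, 0.26 and 0.88 in that order. In the normal comparison, Aldoa, Hk3, Pgk1, Hif1a and Pkm had differences of -1.46 to -1.12, together with Tpi1, P4ha1 and Ndrg1, which were below background on both arrays. Of the genes named for the normal comparison, only Pgk1 and Pkm were above background on the normal high array. With values below background raised to it, 4 of the 12 stayed 2-fold lower, and Hk2, Hk3, Pfkfb4 and Hif1a turned to 0.56, 0.66, 0.47 and 0.20.

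**Figure D5:**
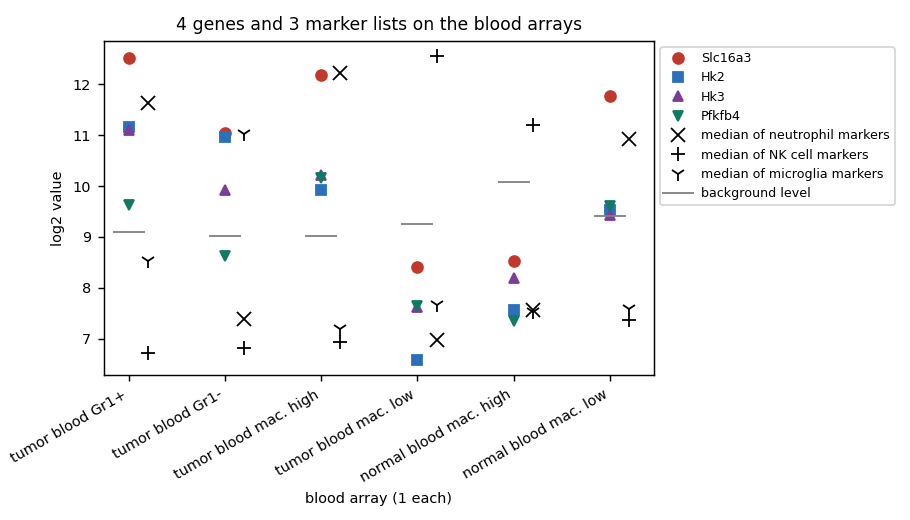
Log2 values (vertical axis) of Slc16a3, Hk2, Hk3 and Pfkfb4 on the 6 blood arrays (horizontal axis, 1 array each), with the median of the neutrophil, natural killer cell and microglia markers as crosses and grey bars for the background level. The 4 genes are low on the 2 arrays where the natural killer cell median is 12.56 and 11.20, the tumor low and normal high arrays.

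Between tumor-bearing and normal mice, the high arrays had 15 of the 37 genes higher, against 17.7% of all genes, and 6 lower, all dim, against 32.9%. Here 58.2% of olfactory receptor genes were themselves 2-fold apart, and the counts were not read further. The low arrays had 0 higher, against 3.29% of all genes, and 9 lower, against 6.06%, among them Slc16a3 with -3.36, Hk2 with -2.94, Pfkfb4 with -1.96 and Hk3 with -1.80, whose tumor low values were all below background. With such values raised to it these 4 came to -2.52, -0.28, -0.36 and -0.18. Aldoa with -1.11, Pkm with -1.09 and Pgk1 with -1.02 were above background on both arrays. Arrays with like markers were also compared across labels, a choice made after the markers were seen. Tumor high against normal low had 1 gene higher, Ndrg1 with 1.1, against 1.79% of all genes, and 0 lower, against 5.79%. Slc16a3 differed by 0.42, Hk2 by 0.38 and Pfkfb4 by 0.55 there. Tumor low against normal high had 4 higher, against 13.5%, and 2 lower, against 13.2%. Here 36.5% of olfactory receptor genes were 2-fold apart. The 4 were Pfkp with 1.34, Hif1a with 1.34, Egln1 with 1.46 and Slc2a3 with 1.01, and with values below background raised to it they came to 1.06, 0.02, -0.72 and -0.35.

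Brain and blood arrays, 6 each, overlapped for all 37 genes. The counts of genes with all brain arrays above or all below the blood arrays were 0 and 0, against 0.145% and 0.221% of all genes. In limma, 0 of the 37 genes were called higher in brain, against 0% of all genes, and 0 lower, against 0.0351%. At an unadjusted p under 0.05 limma had 7 higher, against 7.17%, and 2 lower, against 3.28%. The largest of these was Ldhb, with 10.02 ± 0.95 (SD, n = 6) in brain and 8.12 ± 1.44 (SD, n = 6) in blood and a limma adjusted p of 0.227. Slc2a3 was lower in brain by a difference of -1.47 with a limma adjusted p of 0.312. Without the array labelled tumor blood Gr1-, limma called 3 genes higher in brain, Ldhb, Pdk1 and P4ha1, against 2.16% of all genes, and 0 lower, against 0.757%. Without both blood Gr1 arrays, a fit added after the data were seen, it called 9 of the 37 higher, against 3.5% of all genes, and 1 lower, against 1.29%. The 9 were Hk2, Pfkfb3, Aldoc, Tpi1, Ldhb, Pdk1, Hif1a, P4ha1 and Mif, and Bnip3l was lower.

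Other genes of the same pathways were taken from lists of 35 further glycolysis and pyruvate genes, of which 30 were measured, and 36 further hypoxia genes, of which 33 were measured. In tumor against normal MG, 1 of the 30 was 2-fold higher and 2 lower, and 5 of the 33 higher and 3 lower. Among those above background were the hypoxia targets Cxcr4, a chemokine receptor, with a difference of 3.04, and Hmox1, the heme oxygenase, with 1.94, while Bhlhe41, a transcription factor of microglia and macrophages, differed by -1.05 and Slc16a7, a pyruvate and lactate transporter, by -1.33. In tumor against normal MP, 0 of the 30 were higher and 3 lower, and 1 of the 33 higher and 1 lower, with Vegfa, the vascular growth factor, at 1.22, Adpgk, the ADP-dependent glucokinase, at -2.10, Ppp1r3c, a glycogen regulator, at -1.92 and Pdk2 at -1.1. In tumor brain Gr1+ against Gr1- cells, 1 of the 30 was higher and 0 were lower, and 4 of the 33 were higher and 2 lower, with Vegfa at 1.89, Cxcr4 at 1.75, Nfil3 at 1.66 and Pgm1, which links glycogen to glycolysis, at 1.15. The 2 lower genes were Bhlhe41, at 7.73 against 11.75 with a difference of -4.03, and Plod1, a collagen lysyl hydroxylase, at -1.04. The shares of all genes are those given above for each comparison.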

How the data were processed

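RNA of 12 flow-sorted populations, extracted with TRIzol and amplified in 2 cycles, was hybridized by the authors to Affymetrix Mouse Gene 1.0 ST arrays. The deposited values are log2 expression from the authors' Expression Console run, with RMA named in the notes of the submitters. Genome build and annotation release are not given in the sources used here. The probe annotation pairs 21789 of 28944 probe sets with 1 symbol, 1621 with several and 5534 with none. Probe sets with 1 symbol were used, and the brightest over the arrays stood for each of 19938 genes. Values were not rescaled. Background was the 95th percentile of 1027 olfactory receptor genes on each array.

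Groups came from the sample labels. Comparisons of 2 arrays, 11 in number and 2 added after the data were seen, are log2 differences counted at 2-fold or more beside the same count over all genes. The adjusted p-values named in the methods cannot be had from single arrays. Fits over several arrays (brain against blood, tumor against normal brain, and, added later, tumor against normal MG and MP and Gr1+ against Gr1- cells with a block) used limma 3.58.1 in R 4.3.3 with lmFit, eBayes and Benjamini-Hochberg adjustment over all genes. Python 3.11.15, numpy 2.4.6, pandas 2.3.3 and scipy 1.17.1 were used, and the computations were tested on simulated data. Alternatives were median centring, quantile normalization, values below background raised to it, dim genes left out, averaging the probe sets of a gene, the 90th percentile as background and each array left out. Promoter sequences are from RefSeq, matched by symbol for 33 of the 37 genes, and Ero1l was matched as Ero1a through its gene ID.

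The 40 genes, the pathway lists and the marker lists were chosen with earlier results of these data known. Every one of the 40 is named, and values on the arrays are given for those at least 2-fold apart and above background in tumor against normal MG or MP or in tumor brain Gr1+ against Gr1- cells, those called by limma and the 5 that varied most. The number of arrays, 1 for each condition, limits the precision.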

Additional observations from a re-analysis of the deposited data

Results flagged for a closer look

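Among the 6 brain arrays, 3 genes had an array far from the other five by Dixon's test. Slc2a3 was at 10.29 in normal MP, above all others, Hk3 at 11.02 in tumor Gr1+ cells, and Ldhb at 8.20 in tumor Gr1+ cells, below all others. Chance flags about 1 in 20 groups, and 57 groups were tested.

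The high against low difference of the blood macrophage arrays was opposite in tumor-bearing and normal mice for 8 genes that were at least 2-fold apart in each and above background on at least 1 array of each pair, and this difference between the mice was not tested. In tumor-bearing mice it was 1.72 for Slc2a3, 3.32 for Hk2, 2.58 for Hk3, 2.51 for Pfkfb4, 1.33 for Aldoa, 1.20 for Pgk1, 1.36 for Pkm and 3.78 for Slc16a3. The tumor low values of Hk2, Hk3, Pfkfb4 and Slc16a3 were below background. In normal mice it was -1.79, -1.96, -1.23, -2.28, -1.46, -1.13, -1.12 and -3.25 for the same genes in that order. Ndrg1, which was below background on both normal arrays, had 2.59 and -1.14.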

How the results depend on the processing

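Under the alternatives, 214 counts stayed within 1.5 times the main count and 40 moved. Raising values below background to it moved most. The 2-fold counts of higher and lower genes became 4 and 1 in tumor against normal MG, 1 and 2 in tumor against normal MP, 0 and 0 in normal MP against MG, 5 and 0 in tumor blood macrophage high against low, 5 and 15 in tumor against normal macrophage high, 0 and 0 in tumor high against normal low and 1 and 0 in tumor low against normal high. Lower genes became 4 both in normal macrophage high against low and in tumor against normal macrophage low. The 2-fold shares of all genes under the alternatives are not given here, so these counts describe the 37 genes only. In limma the same step gave 3 higher and 1 lower in brain against blood, against 295 and 266 of all 19938 genes. In tumor against normal brain it gave 11 higher and 1 lower, against 204 and 246 of all genes. But this step makes many genes constant within groups, and the Aldoc limma adjusted p of 8.76e-20 shows that the spread is then understated. Under this setting 12 differences changed sign: Ndrg1 in normal MP against MG (-0.016), Hk2 (0.56), Hk3 (0.66), Pfkfb4 (0.47) and Hif1a (0.20) in normal macrophage high against low, Hk2 (-0.18), Pfkfb3 (-0.24), Egln3 (-0.58), P4ha1 (-0.75) and Ero1a (-0.66) in tumor against normal macrophage high, and Slc2a3 (-0.35) and Egln1 (-0.72) in tumor low against normal high. All 12 but the first involve the normal macrophage high array, which has the highest background. Median centring gave 1 higher in tumor MP, 2 lower in tumor against normal macrophage high, 5 higher in tumor high against normal low and 0 called lower in tumor brain. Quantile normalization gave 1 lower in tumor against normal macrophage high, 1 lower in tumor low against normal high and 0 called lower in tumor brain. Leaving out genes dim on both arrays left 1 lower in normal MP against MG, and 0 lower in tumor macrophage high against low, in tumor against normal macrophage high and in tumor low against normal high, and leaving out dim genes before the fit gave 0 called lower in tumor brain. Over all genes, limma called 0 lower in tumor brain with median centring, 48 with quantile normalization and 26 without dim genes. With each array left out, limma called 0 to 3 higher and 0 lower in brain against blood, and 0 to 2 higher and 0 to 3 lower in tumor brain. The 3 higher came without tumor blood Gr1-, and without both blood Gr1 arrays there were 9 higher and 1 lower. In tumor brain, 2 higher and 3 lower came without tumor Gr1+, against 116 and 226 of all genes, and 2 lower without tumor MP, against 182. Without tumor MG or tumor Gr1- there were 0 lower, against 0 of all genes. With 1 normal array left, it was assumed to vary like the tumor arrays. Without normal MG, Slc2a3 had a difference of -2.33, and without normal MP, Aldoc had one of -2.24. The labels pair no replicates, but with the population as a block, the fit of the MG and MP arrays alone, added after the data were seen, gave 0 called higher and 0 called lower in tumor brain. The cause of these changes was not tested.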
